A study of Mus musculus with 19 samples.

Results

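The 10 genes described here encode carriers of amino acids and small peptides, with the heavy chains that some of these carriers need: Slc6a19, Slc6a20a, Slc1a1, Slc15a1, Slc7a9, Slc3a1, Slc7a7, Slc7a8, Slc7a5, and Slc3a2. They were chosen by name as the main intestinal carriers of protein digestion products, with earlier results of these data known. All 10 were found among the 55487 genes listed for every mouse. Their RNA was measured in crypts, the pockets of the small-intestinal lining that hold stem cells, their dividing progeny, and Paneth cells. The study asked how neurotensin, a gut hormone released after a meal, takes part in the response of the intestine to fasting.

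The 19 mice, with 1 library each, were C57BL/6 animals that either carried the neurotensin gene (NT+/+) or lacked it in the whole body (NT-/-). Standard chow was given ad libitum to 5 NT+/+ and 4 NT-/- mice, while 5 further mice of each genotype had only water for 48 hours (fasted). Mice of both sexes were 10 to 16 weeks old, controls were littermates matched for sex and age, and crypts came from the proximal part of the small intestine after EDTA treatment. The study also used mice with an Lgr5-EGFP reporter, and the labels of these mice do not say whether they carried it. Replicate 5 of the fasted NT+/+ group was named NT+/+ in its title and NT-/- in its genotype label, and replicate 5 of the fasted NT-/- group had no sex label.

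Dietary protein reaches the enterocyte surface as free amino acids and short peptides. Apical carriers in the brush border take them up: Slc15a1 carries dipeptides and tripeptides together with protons, Slc6a19 and Slc6a20a use sodium to carry neutral amino acids and imino acids such as proline, and Slc1a1 carries glutamate and aspartate. Other carriers are heterodimers of a light chain, which forms the path, and a heavy chain, which brings it to the membrane. The apical pair of Slc7a9 with Slc3a1 takes up cystine and basic amino acids, and mutation of either gene causes cystinuria. At the basolateral side Slc3a2 pairs with Slc7a7, which releases basic amino acids, with Slc7a8, which exchanges neutral ones, or with Slc7a5, a carrier of large neutral amino acids that is abundant in many dividing cells. Most of these genes are best known from mature enterocytes of the villus.

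Sequencing depth was 9059457 to 35068711 counts per mouse (median, 18541819). At this depth each of the 10 genes had at least 133 counts in every mouse, so all 10 passed the filter on low counts and were among the 17875 genes tested. Levels of 1 gene across mice are given as CPM, its counts scaled to a common library size, and levels of different genes as TPM, which also corrects for transcript length. Calls were made with edgeR's quasi-likelihood test at an adjusted p under 0.05, and the errors of log2 fold changes are standard errors. The spread in these tests is that between mice. The deletion was visible in Nts, the neurotensin gene, which lay between 4.98 and 8.59 CPM in all NT+/+ mice and between 0.144 and 0.793 CPM in all NT-/- mice. The mouse with the disagreeing labels had 5.43 CPM of Nts, within the range of the other fasted NT+/+ mice, and was kept in the group of its title.

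The promoters of 4 of the 10 genes are shown. Slc6a19 had the largest fold change, and Slc7a7 holds a motif of the amino acid response. Of the partners Slc3a1 and Slc7a9 only the first was called, although their ratio was not shown to change with fasting. Each run is the 250 bases before a RefSeq transcript start in GRCm38.p6, written 5′ to 3′ on the strand of the gene, with motif matches in capitals. The windows are chr13:73692637-73692886 (minus strand) for Slc6a19, chr17:85028097-85028346 (plus strand) for Slc3a1, chr7:35448842-35449091 (plus strand) for Slc7a9, and chr14:54417703-54417952 (minus strand) for Slc7a7.
Slc6a19: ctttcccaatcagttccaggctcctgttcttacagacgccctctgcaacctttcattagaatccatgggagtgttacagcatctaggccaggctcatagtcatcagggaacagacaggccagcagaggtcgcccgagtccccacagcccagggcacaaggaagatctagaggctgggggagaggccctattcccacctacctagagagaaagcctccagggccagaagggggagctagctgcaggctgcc
Slc3a1: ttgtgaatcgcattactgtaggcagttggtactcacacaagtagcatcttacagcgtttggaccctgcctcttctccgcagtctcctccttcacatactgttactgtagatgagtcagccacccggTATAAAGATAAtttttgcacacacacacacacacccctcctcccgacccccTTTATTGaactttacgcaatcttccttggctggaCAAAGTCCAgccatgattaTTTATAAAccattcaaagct
Slc7a9: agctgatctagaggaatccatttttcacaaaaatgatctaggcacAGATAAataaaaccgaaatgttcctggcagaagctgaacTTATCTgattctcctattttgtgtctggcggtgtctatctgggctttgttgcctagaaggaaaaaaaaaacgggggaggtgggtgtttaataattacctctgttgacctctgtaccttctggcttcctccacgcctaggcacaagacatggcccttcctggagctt
Slc7a7: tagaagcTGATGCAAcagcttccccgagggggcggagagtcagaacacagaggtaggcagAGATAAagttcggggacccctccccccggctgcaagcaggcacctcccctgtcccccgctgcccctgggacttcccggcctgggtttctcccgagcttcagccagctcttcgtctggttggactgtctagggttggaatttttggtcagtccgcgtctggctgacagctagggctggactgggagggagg

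The search covered 6 motifs on both strands: TTTATNG for CDX factors, CAAAGTCCA for HNF4, GTTAATNAT for HNF1, AGATAA for GATA factors, TGATGNAA for the amino acid response element bound by ATF4, and TATAAA for the TATA box. The Slc3a1 window held the HNF4 letters at -39 to -31 from the start, which 0.384% of 32817 RefSeq promoter windows of this length hold. It also held a CDX match at -73 to -67 (9.81% of windows), a GATA match at -119 to -114 (9.99%), and TATAAA at 3 places (12.4%), 1 of which shares a base with the GATA match and the other two of which overlap each other. The Slc7a9 window held 2 GATA matches, and the Slc7a7 window held a GATA match and 1 of the amino acid response element, a motif found in 3.45% of windows. The Slc6a19 window held none of the 6. The RefSeq starts used for Slc6a19, Slc7a9, and Slc7a7 lie inside the longer gene models of the annotation. That of Slc3a1 lies before the annotated gene start (85028376), and its first transcribed bases were found in no annotated transcript. Positions in the Slc3a1 window thus rest on the RefSeq start alone. Windows were at hand for 9 of the 10 genes, 14 windows in all, with several starts for Slc7a9 and Slc7a7, of which 1 each is shown. A gene was counted if any of its windows held the letters, whereas the percentages are of single windows. Genes with several windows thus had more chances to match. Among these 9, GATA letters were present for 3, the HNF4, CDX, response element and TATA letters for 1 each, and the HNF1 letters (0.737% of windows) for none. A match says only that these letters are present.

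Fasting was followed by higher RNA of most of these carriers in both genotypes. In NT+/+ mice, 7 of the 10 genes rose and none fell, where 11.2% of all tested genes rose and 10.4% fell. Among NT-/- mice, 7 of the 10 rose and none fell, where 12.5% of all genes rose and 12.6% fell. The genes called were Slc6a19, Slc15a1, Slc6a20a, Slc3a1, Slc7a8, Slc7a7, and Slc3a2 in each genotype. Slc7a9, Slc1a1, and Slc7a5 did not pass the test in either. The median log2 fold change of the 10 genes was 0.54 in NT+/+ and 0.66 in NT-/- mice, against -0.01 and -0.02 over all tested genes. Fasted and ad libitum–fed mice did not overlap in 2 of the 10 genes in NT+/+ mice, fasted being higher, where this held for 7.63% of all genes. The same held for 8 of the 10 in NT-/- mice, where the share of all genes was 10.5%.

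**Figure D1:**
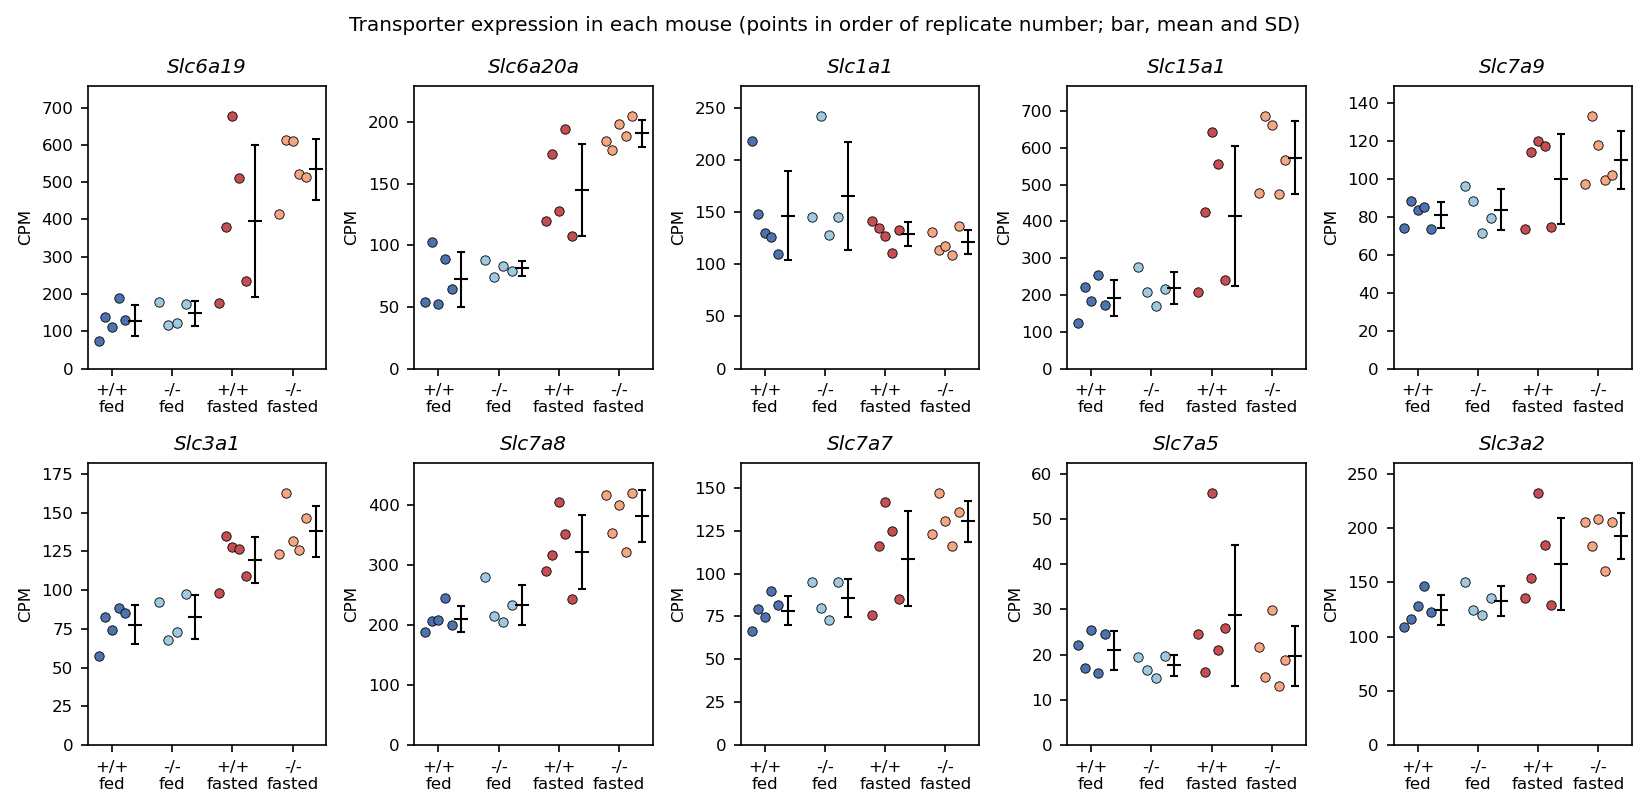
Each panel plots the CPM of 1 transporter on a linear axis from 0, with a point for each mouse in order of replicate number and a bar with the mean and SD of each group; "fed" stands for ad libitum. Slc6a19, Slc15a1, and Slc6a20a show the largest fold changes between fed and fasted groups, and the fasted NT+/+ mice are spread more widely than the fasted NT-/- mice in most panels.

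Slc6a19, the main brush border carrier of neutral amino acids (ENSMUSG00000021565, GRCm38 chromosome 13, 73679745 to 73704865), had the largest fold change of the 10. In NT+/+ mice replicates 1 to 5 had 73.0, 138, 113, 188, and 131 CPM on chow and 177, 380, 677, 511, and 234 CPM after fasting. Of the NT-/- mice the 4 on chow had 178, 116, 123, and 173 CPM and the 5 fasted had 416, 613, 609, 521, and 514 CPM. All fasted NT-/- mice were above all mice on chow of their genotype, and of the fasted NT+/+ mice only replicate 1 was below the highest fed mouse. The log2 fold change was 1.62 ± 0.29 in NT+/+ mice (3.08-fold; adjusted p = 0.000567) and 1.86 ± 0.32 in NT-/- mice (3.62-fold; adjusted p = 0.000301).

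Slc15a1, the peptide carrier (ENSMUSG00000025557, chromosome 14, 121459621 to 121505252), followed the same order of mice in fasted NT+/+ animals as Slc6a19. Its values were 124, 222, 185, 255, and 173 CPM in NT+/+ mice on chow and 207, 426, 643, 557, and 241 CPM in fasted ones. They were 276, 209, 170, and 217 CPM in NT-/- mice on chow and 476, 686, 662, 475, and 567 CPM in fasted ones. The NT+/+ groups overlapped, since fasted replicates 1 and 5 lay below the highest fed mouse, and the NT-/- groups did not. Slc15a1 rose by 1.11 ± 0.26 on the log2 scale in NT+/+ mice (2.16-fold; adjusted p = 0.00431) and by 1.39 ± 0.28 in NT-/- mice (2.63-fold; adjusted p = 0.00118).

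Slc6a20a, the carrier of proline and other imino acids (ENSMUSG00000036814, chromosome 9, 123634770 to 123678885), had the next largest change. It had 53.9, 103, 52.6, 88.6, and 64.3 CPM in NT+/+ mice on chow and 120, 174, 128, 195, and 108 CPM in fasted ones. The NT-/- mice had 88.5, 74.6, 83.6, and 79.0 CPM on chow and 185, 177, 199, 189, and 205 CPM after fasting. Fed and fasted mice were separate in both genotypes, and the fasted NT-/- mice lay close together (191 ± 11.02 CPM, SD, n = 5). The log2 fold changes were 1.00 ± 0.17 in NT+/+ (2.00-fold; adjusted p = 0.000417) and 1.23 ± 0.19 in NT-/- mice (2.34-fold; adjusted p = 9.52e-05). Its near-identical neighbour Slc6a20b was 10.02 ± 2.75 CPM in fed NT+/+ mice (SD, n = 5), rose by 1.00 ± 0.25 (adjusted p = 0.00797) and 1.17 ± 0.27 (adjusted p = 0.00395), and can share reads with it, so the division between both genes is uncertain.

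Slc1a1, the glutamate and aspartate carrier (ENSMUSG00000024935, chromosome 19, 28835049 to 28913960), was the only gene of the 10 with lower means after fasting in both genotypes, and it did not pass the test with all mice. NT+/+ mice had 218, 149, 130, 126, and 110 CPM on chow and 142, 135, 127, 111, and 133 CPM after fasting. NT-/- mice had 145, 242, 128, and 145 CPM on chow and 131, 113, 118, 109, and 137 CPM after fasting. In each fed group 1 mouse was well above the others, and fed and fasted mice overlapped. The log2 differences were -0.18 (95% interval, -0.53 to 0.17; adjusted p = 0.484) in NT+/+ and -0.44 (-0.81 to -0.07; adjusted p = 0.0746) in NT-/- mice. Without replicate 1 of the fed NT+/+ group the NT+/+ difference was 0.0083. Leaving out 1 mouse moved the NT-/- difference between -0.55 and -0.20, the latter without fed NT-/- replicate 2 (adjusted p = 0.416). It passed the test without fed NT+/+ replicate 1 (adjusted p = 0.0284) or fed NT-/- replicate 3 (adjusted p = 0.0456).

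Of the apical heterodimer, the heavy chain passed the test and the light chain did not. Slc3a1, the heavy chain (ENSMUSG00000024131, chromosome 17, 85028376 to 85064236), had 57.5, 82.8, 74.3, 88.5, and 85.5 CPM in fed and 98.2, 135, 128, 126, and 109 CPM in fasted NT+/+ mice. Its values in NT-/- mice were 92.3, 67.5, 73.1, and 97.3 CPM on chow and 123, 163, 132, 126, and 146 CPM after fasting. No fasted mouse overlapped the fed mice of its genotype. Slc3a1 rose by 0.62 ± 0.13 (1.54-fold; adjusted p = 0.00155) in NT+/+ and by 0.74 ± 0.13 (1.67-fold; adjusted p = 0.000492) in NT-/- mice on the log2 scale.

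Slc7a9, the light chain (ENSMUSG00000030492, chromosome 7, 35448796 to 35466036), had 74.2, 88.3, 83.6, 85.3, and 73.8 CPM in fed and 73.5, 114, 120, 118, and 74.5 CPM in fasted NT+/+ mice. Fasted NT+/+ replicates 1 and 5 were thus at the level of fed mice and the other 3 were above all of them. The values in NT-/- mice were 96.1, 88.2, 71.4, and 79.4 CPM on chow and 97.6, 133, 118, 99.3, and 102 CPM after fasting, with 97.6 against 96.1 CPM in the closest mice and no overlap. The log2 difference was 0.30 (95% interval, 0.02 to 0.59; adjusted p = 0.121) in NT+/+ mice and 0.39 (0.09 to 0.69; adjusted p = 0.0529) in NT-/- mice. The NT-/- difference passed the test in 5 of 9 alternatives (adjusted p = 0.0187 to 0.127 over the 9). These were the replicate block by the number in the title (0.0187) or in the file name (0.0451), DESeq2 (0.0286), a fit of only the compared groups (0.0217), and a stricter filter that kept genes with 10 or more counts in all mice (0.0485). With 1 mouse left out, the NT-/- difference passed in 5 of 19 fits (adjusted p = 0.0319 to 0.164 over the 19). The NT+/+ difference passed in 2 of 19, without fasted replicate 1 (adjusted p = 0.0329) or fasted replicate 5 (adjusted p = 0.0368).

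Fold changes of the basolateral carriers were at most 1.64. Slc7a8, the light chain for neutral amino acids (ENSMUSG00000022180, chromosome 14, 54722209 to 54781946), had 189, 207, 208, 245, and 200 CPM in fed and 290, 317, 405, 351, and 243 CPM in fasted NT+/+ mice. The NT-/- values were 279, 215, 205, and 233 CPM on chow and 416, 354, 399, 321, and 420 CPM after fasting. Only fasted NT+/+ replicate 5 lay within the range of the fed mice of its genotype. Slc7a8 rose by 0.61 ± 0.12 (1.53-fold; adjusted p = 0.00131) and by 0.71 ± 0.13 (1.64-fold; adjusted p = 0.000525) in NT+/+ and NT-/- mice on the log2 scale.

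Slc7a7, the light chain for basic amino acids (ENSMUSG00000000958, chromosome 14, 54369442 to 54417780), ranged from 66.4 to 89.8 CPM in fed and from 75.7 to 142 CPM in fasted NT+/+ mice. In NT-/- mice it ranged from 73.1 to 94.9 CPM on chow and from 116 to 147 CPM after fasting. It rose by 0.47 ± 0.14 (1.39-fold; adjusted p = 0.0186) in NT+/+ and by 0.61 ± 0.15 (1.52-fold; adjusted p = 0.00498) in NT-/- mice. The NT+/+ call was lost when only the compared groups were fitted (adjusted p = 0.0519; range over 9 alternatives, 0.00708 to 0.0519), and without fed replicate 1 (adjusted p = 0.0518), fasted replicate 3 (0.0644), or fasted replicate 4 (0.0558).

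Slc3a2, the heavy chain of all basolateral pairs named here (ENSMUSG00000010095, chromosome 19, 8706882 to 8723369), had 109, 116, 128, 146, and 123 CPM in fed and 136, 155, 233, 184, and 129 CPM in fasted NT+/+ mice. NT-/- mice had 151, 125, 120, and 136 CPM on chow and 206, 184, 209, 160, and 205 CPM after fasting. Fed and fasted mice overlapped in NT+/+ and were separate in NT-/- animals. It rose by 0.43 ± 0.13 (1.34-fold; adjusted p = 0.0263) and by 0.54 ± 0.14 (1.45-fold; adjusted p = 0.00835). The NT+/+ call was lost with only the compared groups in the fit (adjusted p = 0.0626; range over 9 alternatives, 0.0125 to 0.0626) and without fed replicate 1, 2, or 5 or fasted replicate 3 or 4 (adjusted p = 0.0502 to 0.0911), the last value being that without fasted replicate 3, at a log2 fold change of 0.28.

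Slc7a5, the light chain linked to dividing cells (ENSMUSG00000040010, chromosome 8, 121881150 to 121907694), was the least abundant. It had 22.2, 17.0, 25.4, 15.99, and 24.5 CPM in fed and 24.6, 16.1, 55.8, 21.0, and 25.9 CPM in fasted NT+/+ mice, where replicate 3 alone stood apart. In NT-/- mice it ranged from 14.9 to 19.7 CPM on chow and from 13.1 to 29.8 CPM after fasting. The log2 differences were 0.45 (95% interval, -0.10 to 1.01; adjusted p = 0.24) and 0.17 (-0.42 to 0.76; adjusted p = 0.717), so neither a rise nor a fall was detectable. Without fasted NT+/+ replicate 3 the first was 0.06.

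**Figure D2:**
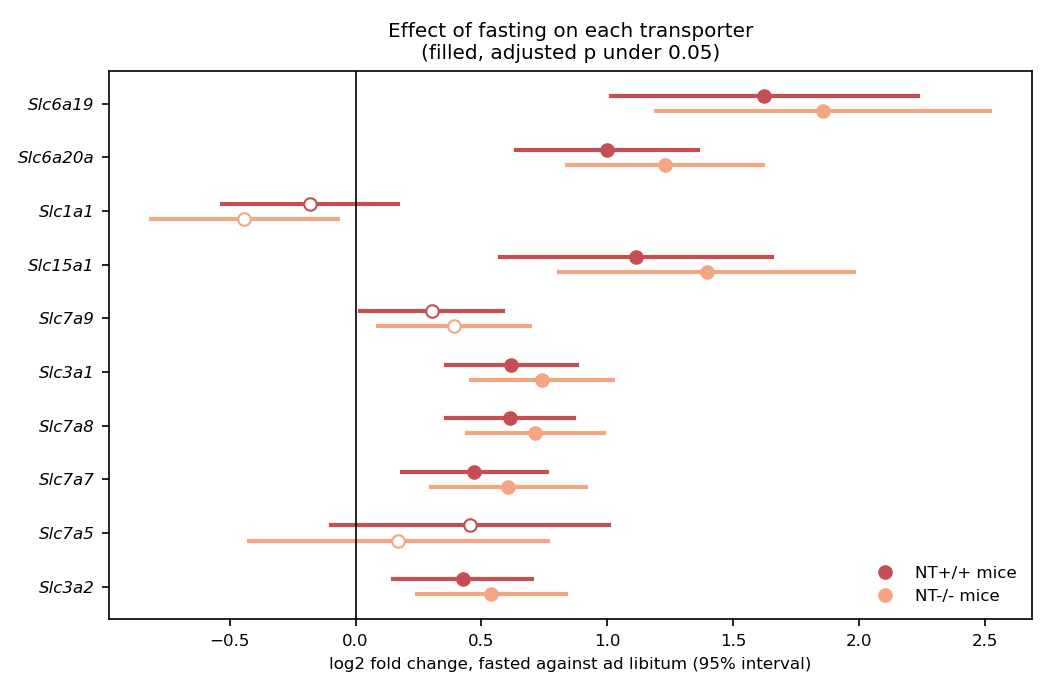
Points give the log2 fold change of fasted against ad libitum–fed mice for each of the 10 transporters in each genotype, lines give 95% intervals, and filled points passed an adjusted p under 0.05. The intervals of the genotypes overlap for every gene, Slc6a19 lies farthest to the right at 1.62 and 1.86, and Slc1a1 is the only gene with both points left of 0.

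Some exons of these genes lie on the opposite strand of another gene's exons. The longer overlaps were 601 bases shared between Slc3a1 and Prepl, 232 between Slc7a7 and Oxa1l, 2631 between Slc1a1 and 4430402I18Rik, and 563 between Slc6a20a and Gm17120, and Slc6a20a also shared 22 bases each with Ccr9 and Gm17200. The strand setting of the counting is not given in the sources used here, so reads from such stretches cannot be told apart between the partners.

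Deletion of the neurotensin gene was not followed by a detectable change in any of the 10 genes. In ad libitum–fed mice 0 of the 10 genes were called by edgeR, where 0.00559% of all genes were called, and 0 of the 10 had an unadjusted p under 0.05, against 1.67% of all genes. By DESeq2 0 of the 10 were called as well, against 3 of all 17875 genes. Log2 differences between fed NT-/- and NT+/+ mice lay between -0.25 for Slc7a5 and 0.20 for Slc6a19. In fasted mice 0 of the 10 were called by edgeR, against 0.00559% of all genes. DESeq2 also called 0 of the 10 there, against 101 of all 17875 genes. There 1 of the 10, Slc6a20a, had an unadjusted p under 0.05, against 9.14% of all genes. NT+/+ and NT-/- mice overlapped in all 10 genes in either diet, where 0.694% of all genes did not overlap on chow and 1.56% after fasting.

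In fasted mice, 8 of the 10 genes had log2 differences above 0 between NT-/- and NT+/+ mice, as did 47.3% of all tested genes, without passing the test. The median was 0.23 for the 10 genes, 0.42 for the enterocyte markers and -0.25 for the stem and progenitor markers described below, and the part of these markers in the difference was not tested. Slc6a20a was 191 ± 11.02 CPM in fasted NT-/- and 145 ± 37.5 CPM in fasted NT+/+ mice (SD, n = 5 each), a log2 difference of 0.40 (95% interval, 0.04 to 0.76; adjusted p = 0.475). Slc15a1 differed by 0.47 (-0.07 to 1.00; adjusted p = 0.624) and Slc6a19 by 0.43 (-0.16 to 1.03; adjusted p = 0.70). Slc7a5 had the opposite sign, at -0.53 (-1.09 to 0.03; adjusted p = 0.573), and was at -0.14 without fasted NT+/+ replicate 3. With the mouse of disagreeing labels counted as NT-/-, the differences of Slc6a20a, Slc15a1, and Slc6a19 were 0.20, 0.18, and 0.15.

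The effect of fasting was not shown to differ between genotypes. By the interaction term, 0 of the 10 genes were called, where 0.0% of all genes were called. None of the 10 had an unadjusted p under 0.05, against 2.71% of all genes. DESeq2 called 0 of the 10 and 0 of all 17875 genes. The difference between the effects (NT-/- minus NT+/+) ranged from -0.28 for Slc7a5 to 0.28 for Slc15a1 on the log2 scale, with 95% intervals of -1.09 to 0.53 and -0.50 to 1.06. Both changed sign, Slc7a5 to 0.11 without fasted NT+/+ replicate 3 and Slc15a1 to -0.01 with the mouse of disagreeing labels counted as NT-/-.

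The spread among fasted NT+/+ mice was shared by most of the genes. Replicate 1 and replicate 5 were each lowest or next to lowest for 8 of the 10 genes, and replicate 3 was highest for 7. Summed over the 10 genes, the fasted NT+/+ mice had 1343, 1967, 2658, 2298, and 1382 CPM in order of replicate, the lowest near the highest fed NT+/+ mouse (1328 CPM). The 17 enterocyte markers, summed in the same mice, were at 13960, 23900, 26490, 26630, and 17160 CPM, so replicates 1 and 5 were lowest there too. The 10 stem and progenitor markers were at 3165, 2363, 2237, 1960, and 3256 CPM, with replicates 1 and 5 highest. With replicate 5, the mouse of disagreeing labels, left out, 8 of the 10 genes were called in NT+/+ mice, Slc7a9 being the one added. In that fit 3973 of 17844 tested genes were called, 2033 of them higher.

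Markers of mature enterocytes moved with the transporters. Of 17 enterocyte markers tested, 10 rose and none fell in NT+/+ mice (median log2 fold change, 0.58) and 15 rose and none fell in NT-/- mice (0.86). Fabp1, a fatty acid binding protein, rose by 2.09 ± 0.23 (adjusted p = 3.8e-06) and 2.05 ± 0.25 (9.4e-06). Fabp2, the intestinal form, rose by 1.43 ± 0.24 (0.000298) and 1.80 ± 0.26 (6.02e-05), Apoa1, an apolipoprotein, by 1.39 ± 0.28 (0.00159) and 1.75 ± 0.31 (0.000387), and Myo1a, a brush border myosin, by 0.52 ± 0.11 (0.00282) and 0.61 ± 0.12 (0.00115). Summed enterocyte markers ranged from 8387 to 15225 CPM in fed NT+/+ and from 11368 to 16623 CPM in fed NT-/- mice. In fasted mice they ranged from 13958 to 26633 CPM in NT+/+ and from 23440 to 32396 CPM in NT-/- animals. None of the 17 was at 0. In bulk RNA more cells of a type and more RNA per cell cannot be told apart, and the part of this shift in the transporter result was not tested.

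Proliferation genes among the stem and progenitor markers moved the other way. Of all 10 stem and progenitor markers tested, 5 fell in NT+/+ mice (median, -0.36) and 7 fell in NT-/- mice (median, -0.49), and none rose. Top2a fell by 0.62 and 0.78 on the log2 scale (adjusted p = 0.000438 and 6.78e-05), Mki67 by 0.46 and 0.59 (0.000866 and 0.000119), Mcm5 by 0.50 and 0.80 (0.00597 and 0.000187), and Pcna by 0.48 and 0.50 (0.00156 and 0.00144), all of them genes of dividing cells. The sum of all 10 stem and progenitor markers ranged from 3007 to 4326 CPM in fed and from 1787 to 3256 CPM in fasted mice of both genotypes. Stem cell genes of this list were mixed and are named after their values were seen. Olfm4 fell by 0.63 and 0.92 (0.0322 and 0.00409). Lgr5 (0.29 and -0.02; 0.287 and 0.955), Ascl2 (0.63 and 0.12; 0.114 and 0.823), and Axin2 (0.12 and -0.23; 0.676 and 0.407) did not pass the test. The stem cell gene Smoc2 and the proliferation gene Ccnb1 passed the test only in NT-/- mice, where both fell. Lgr5, the stem cell marker of the crypt base, was present at 8.62 TPM in fed NT+/+ mice and Lyz1, the Paneth cell lysozyme, at 6830 TPM.

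Other cell types were few or moved in part. Of 10 Paneth and goblet cell markers, 2 fell in NT+/+ and 4 in NT-/- mice and none rose (medians, -0.02 and -0.40). Those were the goblet cell genes Agr2 (-1.0008 and -1.59; adjusted p = 0.000252 and 2.9e-06), Clca1 (-1.51 and -2.22; 0.0093 and 0.000674), and, in NT-/- mice, Muc2 (-0.83; 0.00309) and Spink4 (-1.31; 0.0126). The summed Paneth and goblet markers ranged from 18259 to 30031 CPM in fed and from 15281 to 29147 CPM in fasted mice. Of 8 enteroendocrine and tuft cell markers, Chga rose in each genotype (0.39 and 0.42; adjusted p = 0.0212 and 0.0195), Gcg fell in NT-/- mice (-0.49; 0.00549), and sums stayed between 279.9 and 531 CPM. Of 11 immune markers tested, Itgam fell in each genotype (-0.83 and -0.54; adjusted p = 0.000146 and 0.00653), with sums from 68.3 to 167 CPM over all mice. None of 7 stromal, endothelial, and muscle markers was called, at sums of 7.96 to 17.0 CPM, and Pdgfra, Cdh5, Des, and the immune marker Adgre1 had 0 counts in some mice and too few to test.

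Segment markers bear on which stretch of intestine was collected. Of 5 duodenal and jejunal markers, the iron exporter Slc40a1 fell in both genotypes (-2.12 ± 0.22, adjusted p = 1.54e-06; -1.61 ± 0.23, adjusted p = 5.95e-05). Onecut2 (0.70; adjusted p = 0.0347) and Cyp2b10 (1.35; 0.0499) rose in NT-/- mice. Of 3 ileal markers, Osr2 rose in both genotypes (0.38 and 0.29; adjusted p = 0.00132 and 0.0104) and Slc10a2, the bile acid carrier, rose in NT+/+ mice (1.99; 0.0069). The 5 duodenal and jejunal markers had mean sums of 258 CPM in fed and 317 CPM in fasted NT+/+ mice, and 270 and 378 CPM in NT-/- mice. Mean sums of the 3 ileal markers were 69.3 and 88.2 CPM in NT+/+ and 69.8 and 82.1 CPM in NT-/- mice. Whether these genes respond to fasting themselves was not tested. In none of the marker lists was a gene called between genotypes in either diet.

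Other carriers of amino acids and peptides did not rise as a group. Of 33 listed, 28 could be tested, with 5 higher and none lower in NT+/+ mice (median, 0.07) and 4 higher and 2 lower in NT-/- mice (median, -0.08). Slc16a10, a basolateral carrier of aromatic amino acids, rose by 0.63 ± 0.16 (adjusted p = 0.00708) and 0.98 ± 0.17 (0.000326), and Slc6a6, the taurine carrier, by 0.57 ± 0.10 (0.000528) and 0.58 ± 0.11 (0.000674). Slc7a2, a carrier of basic amino acids, rose by 0.78 ± 0.17 (0.00293) and 0.72 ± 0.18 (0.0064), and Slc6a20b rose in both as given above. Further calls, named after their values were seen, were a rise of the glutamine carrier Slc38a3 in NT+/+ mice (1.04; adjusted p = 0.0319) and falls in NT-/- mice of the neutral amino acid carriers Slc1a4 (-0.68; 0.0407) and Slc1a5 (-0.31; 0.0458). The apical carrier Slc6a14 and the light chain Slc7a10 had at most 4 and 2 counts in any mouse and were not tested.

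**Figure D3:**
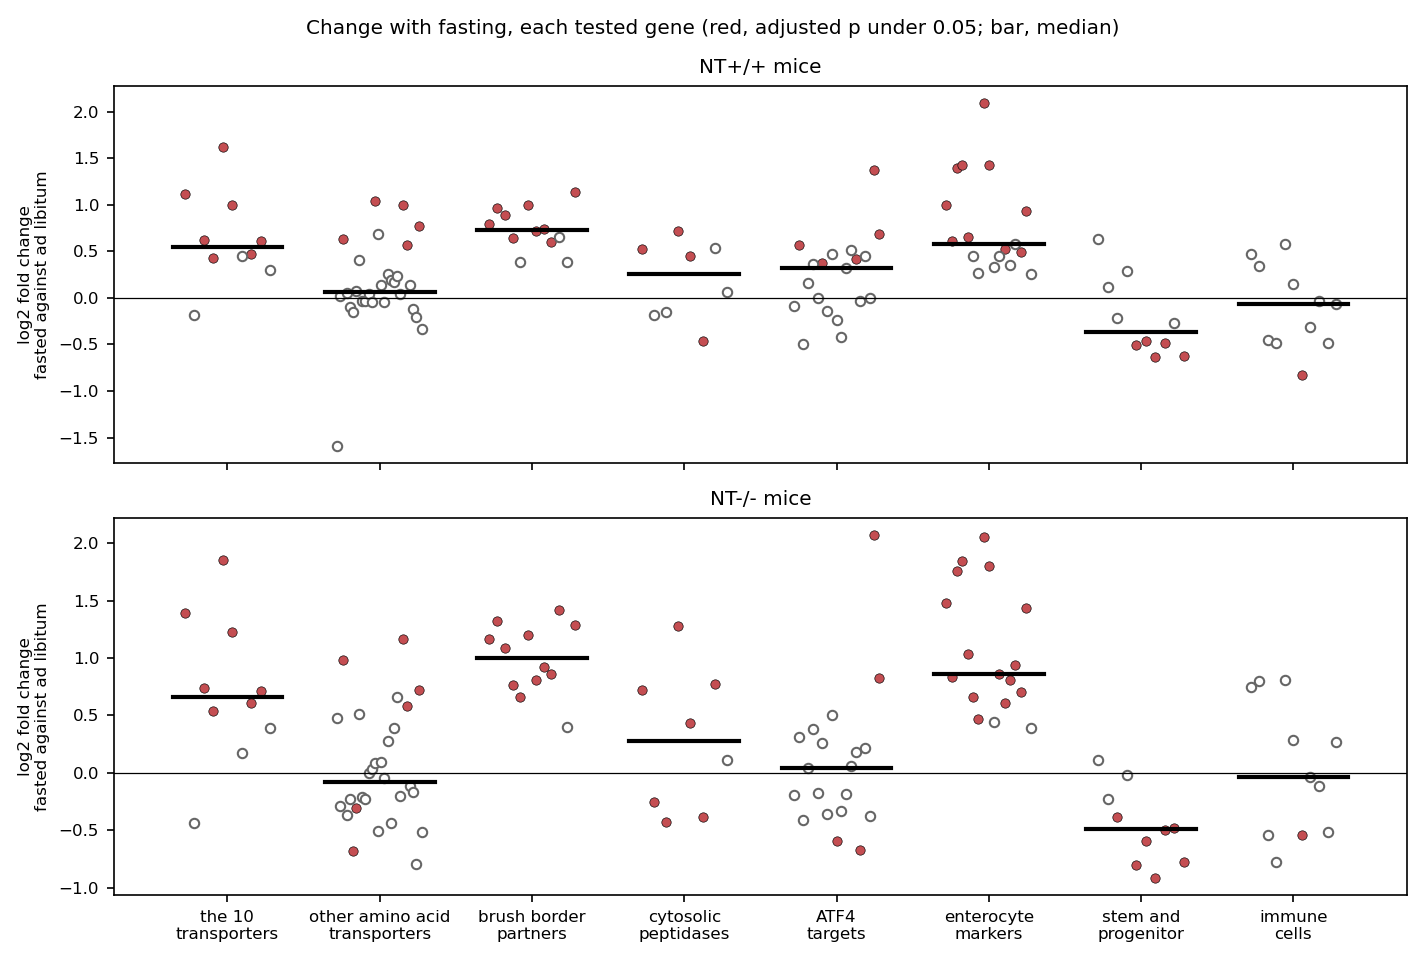
Each point is the log2 fold change, fasted against ad libitum, of a tested gene, with NT+/+ mice above and NT-/- mice below; red points passed an adjusted p under 0.05 and bars are list medians. The 10 transporters have medians of 0.54 and 0.66, near those of the enterocyte markers (0.58 and 0.86) and brush border partners (0.73 and 1.00), while the 28 other carriers centre on 0.07 and -0.08.

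Most partners and peptidases of the brush border rose with fasting. Of 15 listed and 12 tested, 9 rose in NT+/+ mice (median, 0.73) and 11 in NT-/- mice (median, 1.00), and none fell. Cltrn, the partner of Slc6a19 in kidney, had at most 4 counts in any mouse. The aminopeptidases Enpep (1.00 ± 0.16 and 1.20 ± 0.18; adjusted p = 0.00024 and 7.04e-05), Xpnpep2 (1.14 ± 0.21 and 1.29 ± 0.23; 0.000832 and 0.000453), and Anpep (0.89 ± 0.21 and 1.08 ± 0.22; 0.00441 and 0.00143) rose in both genotypes.

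Cytosolic peptidases, which split peptides after uptake, went in both directions. Of 8 tested, 3 rose and 1 fell in NT+/+ mice, and 4 rose and 3 fell in NT-/- mice (medians, 0.26 and 0.28). Lap3, a leucine aminopeptidase, rose by 0.72 ± 0.15 (adjusted p = 0.0017) and 1.27 ± 0.16 (1.26e-05). Npepl1 rose by 0.45 and 0.44 (0.00037 and 0.000694) and Cndp2, a dipeptidase, by 0.53 and 0.72 (0.0339 and 0.0068), while Npepps, another aminopeptidase, fell by 0.47 and 0.38 (1.98e-05 and 0.000209).

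ATF4 is the transcription factor through which cells respond to a shortage of amino acids, and Slc7a5, Slc3a2, and Slc7a11 are among the genes it is known to raise. Of 19 other ATF4 targets tested, 5 rose and none fell in NT+/+ mice (median, 0.32), and 2 rose and 2 fell in NT-/- mice (median, 0.04). Trib3 rose by 1.37 ± 0.25 (adjusted p = 0.000708) and 2.07 ± 0.28 (2.47e-05) and Vldlr by 0.68 ± 0.13 (0.00116) and 0.82 ± 0.14 (0.000361). Asns, which makes asparagine, rose in NT+/+ mice (0.57 ± 0.15; 0.0114) and was at 0.31 ± 0.16 (0.184) in NT-/- mice. Mthfd2, a mitochondrial folate enzyme, fell in NT-/- mice (-0.60 ± 0.16; 0.0109). In none of these 4 lists was a gene called between genotypes.

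Compared per length, Slc3a2 had the highest level of the 10 genes in fed mice and Slc15a1 in fasted mice. In fed NT+/+ mice the order by mean TPM was Slc3a2 at 91.8 ± 16.6, Slc15a1 at 72.1 ± 23.1, Slc7a9 at 67.8 ± 10.96, Slc7a8 at 60.9 ± 10.45, Slc1a1 at 52.8 ± 10.3, Slc7a7 at 47.2 ± 9.63, Slc6a19 at 45.3 ± 15.9, Slc3a1 at 40.7 ± 9.85, Slc6a20a at 39.3 ± 15.1, and Slc7a5 at 7.31 ± 1.72 (SD, n = 5). Of the 9 pairs of neighbours in that order, 8 had overlapping ranges, and only Slc7a5 was apart from the next gene. In fasted NT-/- mice the first places were held by Slc15a1 at 210 ± 49.6, Slc6a19 at 179 ± 35.4, and Slc3a2 at 141 ± 21.0 TPM. There 7 of 9 neighbours overlapped, and Slc1a1 at 42.2 ± 3.08 and Slc7a5 at 6.27 ± 1.99 TPM were apart from the rest. The 10 means added up to 525 TPM in fed NT+/+, 557 in fed NT-/-, 842 in fasted NT+/+, and 1033 in fasted NT-/- mice.

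**Figure D4:**
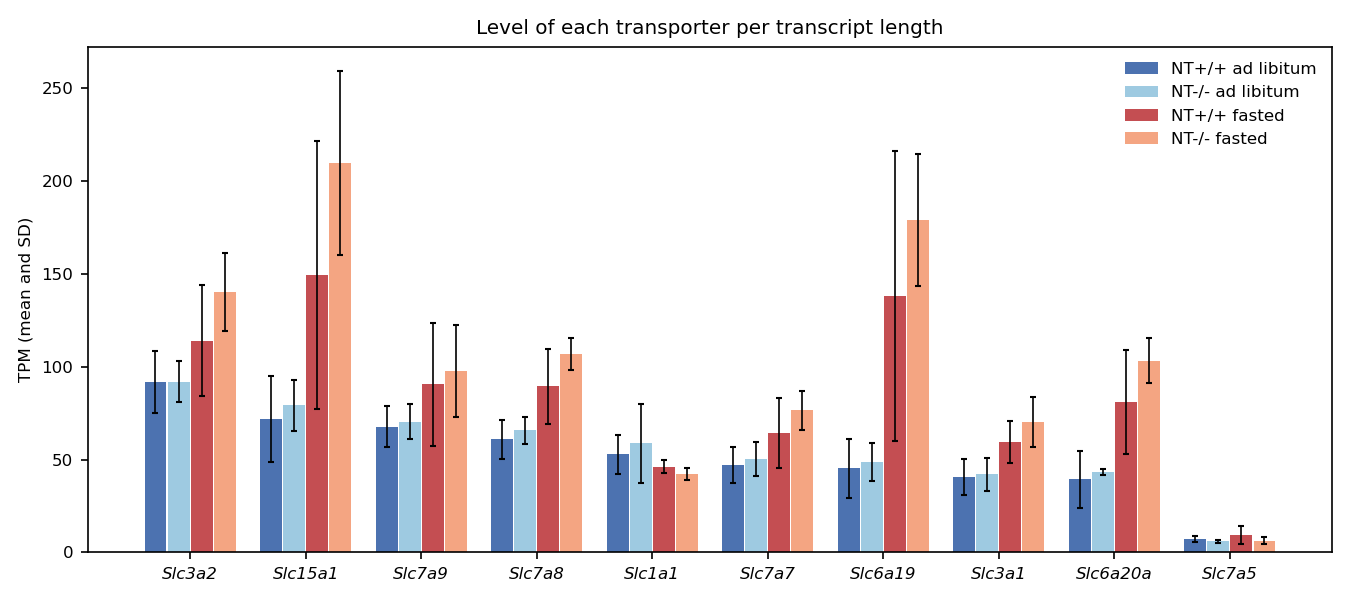
Bars give the mean TPM of each transporter in each group from a zero baseline, and lines give the SD over 4 or 5 mice. Slc15a1 and Slc6a19 have the tallest bars in the fasted groups, at 149 and 138 TPM in NT+/+ and 210 and 179 TPM in NT-/- mice, and Slc7a5 stays under 10 TPM in each group.

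Levels of heavy and light chains can be set against each other, since each carrier needs one of each. Slc7a8 and Slc7a7 made up 50.1% and 38.8% of the mean TPM of the 6 light chains of Slc3a2 in fed NT+/+ mice. The shares were 53.1% and 38.2% in fasted NT+/+, 51.4% and 39.4% in fed NT-/-, and 55.2% and 39.5% in fasted NT-/- mice. The remainder was Slc7a5, Slc7a6, Slc7a10, and Slc7a11. Slc3a2 itself was at 75.5% of the sum of its 6 light chains in fed NT+/+ mice and at 72.5% in fasted NT-/- mice. Slc3a1 was at 0.590 of the level of Slc7a9 in fed NT+/+ mice, at 0.592 in fed NT-/- mice, and at 0.688 and 0.728 in fasted NT+/+ and NT-/- mice (geometric means). The log2 difference in this ratio was 0.22 ± 0.18 (SE) in NT+/+ mice and 0.30 ± 0.18 in NT-/- mice. Both were within the spread between mice by exact two-sided permutation tests without pairing (p = 0.254 and 0.143).

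Altogether 8 such ratio tests were made, 4 pairs in 2 genotypes, with pairs and test chosen after values were seen, and none passed after Benjamini-Hochberg adjustment. The smallest p of the exact permutation test, 0.0159, was found for Slc3a2 over Slc7a5 in NT-/- mice, where it is the smallest that 5 against 4 mice allow, and for Slc3a2 over Slc7a8 in NT+/+ mice (adjusted p = 0.0635 for each). The first ratio was 15.3 in fed and 23.0 in fasted NT-/- mice, a log2 difference of 0.59 ± 0.15, with all 5 fasted mice above all fed mice. In NT+/+ mice it was 12.7 in fed and 12.8 in fasted animals (exact permutation p = 0.976). The ratio of Slc3a2 to Slc7a8 went from 1.51 to 1.27 in NT+/+ mice (log2 difference, -0.25 ± 0.07; 4 of 5 fasted mice below all fed mice) and from 1.40 to 1.30 in NT-/- mice (-0.10 ± 0.06; exact permutation p = 0.159). The ratio of Slc3a2 to Slc7a7 differed by -0.13 ± 0.09 (exact permutation p = 0.183) and -0.01 ± 0.09 (p = 0.889). Mice were also paired by number. By title or file name number, Slc3a2 over Slc7a7 and Slc3a2 over Slc7a8 were lower in the fasted mouse of 5 of 5 NT+/+ pairs. Slc3a2 over Slc7a5 was higher in 4 of 4 NT-/- pairs by either number. By file name number, Slc3a1 over Slc7a9 was higher in 4 of 4 NT-/- pairs (mean log2 difference, 0.37). Slc3a2 over Slc7a8 was then lower in 4 of 4 NT-/- pairs (-0.13). By title number these counts were 2 of 4 and 3 of 4. Where all pairs went 1 way, the exact permutation test within pairs gives p = 0.0625 (5 pairs) or 0.125 (4 pairs). These are the smallest p that 5 and 4 pairs allow, so pairing cannot decide whether a ratio changed.

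**Figure D5:**
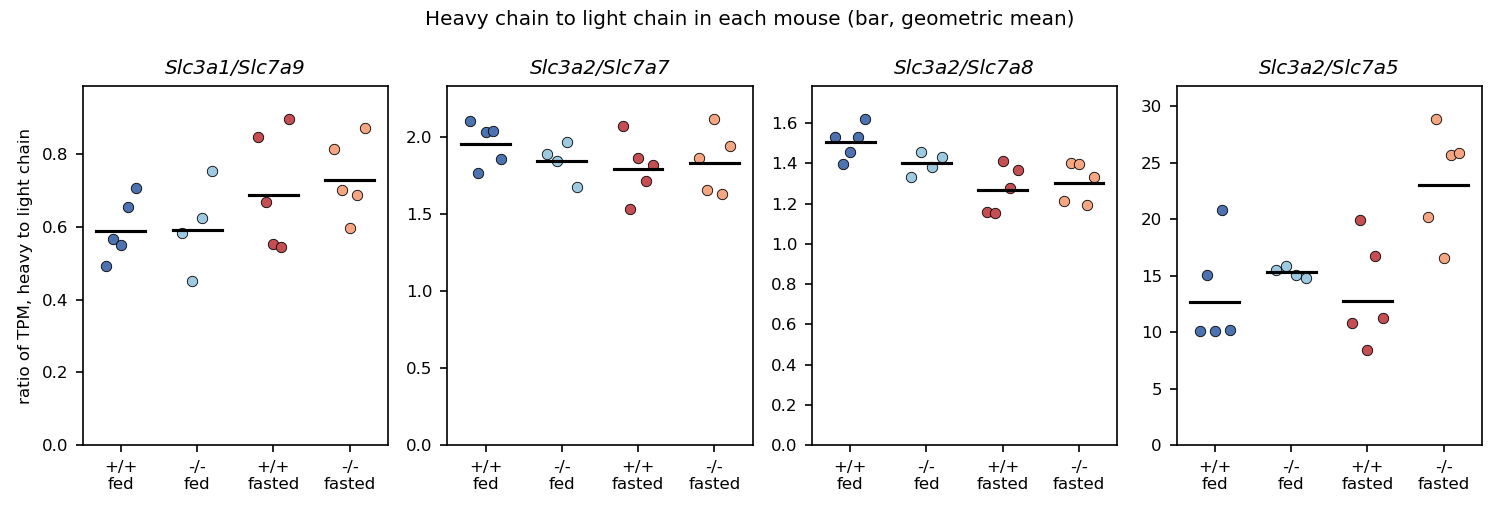
Each panel plots the TPM of a heavy chain over that of a light chain, with a point for each mouse, a bar at the geometric mean of the group, and a linear axis from 0. In the panel of Slc3a2 over Slc7a5 the fasted NT-/- mice lie between 16.6 and 28.9, above the fed NT-/- mice between 14.8 and 15.8, while the other groups overlap widely.

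Profiles over the 19 mice were compared by the root mean square difference of log2 CPM scaled to mean 0 and SD 1, in which a lower value means more alike. The tested gene outside the 10 that was most like Slc6a19 was Dgat1, an enzyme of triglyceride synthesis (0.132). Slc3a1 was most like the aminopeptidase Enpep (0.198), Slc7a7 like Slc9a3r1, a scaffold protein of the brush border (0.176), and Slc7a9 like the proton-coupled amino acid carrier Slc36a1 (0.305). For Slc7a8 it was Cideb (0.258), a protein of lipid droplets, for Slc3a2 Dhrs11 (0.252), and for Slc6a20a Pbld2 (0.271). Slc1a1 was most like Acss1 (0.315), a mitochondrial acetyl-CoA synthetase, and Slc7a5 like Sipa1l1 (0.421), the least close of these matches. Over all tested genes the median difference from a member lay between 1.37 and 1.42. Among the 10 themselves, the nearest to Slc6a19 and Slc15a1 was the other of the pair (0.188), whereas the nearest to Slc1a1 was at 1.43, no nearer than a median gene. These likenesses describe 19 mice that share diet groups and the enterocyte marker shift given above.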

How the data were processed

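RNA of crypts from 19 mice was sequenced after ribosomal RNA depletion (single-end, 100 bases). Per the labels and the study's methods, the authors trimmed reads with Trimmomatic 0.39 and mapped them with RSEM to Ensembl transcripts of GRCm38. They deposited an expected count per gene, which is not normalized and divides shared reads by a model, and TPM, which RSEM scales for transcript length and depth. The RSEM version and strand setting are not given in the sources used here. Other columns were not used.

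Expected counts were rounded to whole numbers. Of 55487 genes, 55141 had a symbol in the GENCODE annotation of GRCm38. With edgeR 4.0.16 (R 4.3.3), counts were TMM-normalized, the 17875 genes passing filterByExpr were fitted with 4 groups and no covariate (15 residual degrees of freedom), and quasi-likelihood tests were adjusted by Benjamini-Hochberg over all of them. DESeq2 1.42.0, other filters and scaling, replicate blocks, sex, the other label of 1 mouse, fewer groups, and leaving out each mouse were alternatives. CPM used TMM library sizes, with a prior count of 2 for log2 profiles. TPM ratios had no pseudocount and were compared by exact permutation tests. Groups came from titles.

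The fit was tested on simulated data with 200 changed genes among 17875, in fasted against fed NT+/+ mice. Of those changed 1.5-fold 50% were recovered, and of those changed 2-fold 80%. In the actual comparison 3862 genes were called, so these shares describe data with fewer changed genes. Total counts per mouse were 9059457 to 35068711.

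No label says what a number marks. Deviations of same-numbered mice from group means had a mean correlation of 0.184 for the number in the title (19 of 27 pairs over 0.1) and 0.227 for the number in the file name (24 of 27). Within the comparisons, the title numbers exceeded 0.1 in 5 of 5 pairs for fasting in NT+/+ mice and for genotype in fasted mice, and in 2 of 4 for the other two. The file name numbers exceeded it in every pair of each comparison. The main fit used neither number, so its errors and p-values do not account for any pairing. Blocks by either number were run among the alternatives.

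The 10 genes and the lists were chosen with earlier results of these data known. From each other list, the text names up to 4 called genes with the smallest p in either fasting comparison, and for 9 of the 10 the most similar gene; 1 gene that the rule names is not reported here. Lists were written from general knowledge: other carriers, brush border partners and peptidases, cytosolic peptidases, ATF4 targets, and markers of enterocytes, stem and progenitor, Paneth and goblet, enteroendocrine and tuft, immune, and stromal cells and of segments. Promoters came from RefSeq (GRCm38.p6).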

Additional observations from a re-analysis of the deposited data

Results flagged for a closer look

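Single mice stood far from the rest of their group in 2 of 40 tests (10 genes in 4 groups) by Dixon's gap test at its 95% limit, and chance gives such a flag in about 1 of 20 groups. Slc1a1 was at 242 CPM in replicate 2 of the ad libitum–fed NT-/- group, with the nearest mouse at 145 CPM and the gap 0.848 of the range. Without that mouse, the difference of fed NT-/- from fed NT+/+ mice in Slc1a1 went from 0.17 to -0.07 on the log2 scale. Slc7a5 was at 55.8 CPM in replicate 3 of the fasted NT+/+ group, with the nearest mouse at 25.9 CPM and the gap 0.754 of the range. That mouse was also the highest of its group for 7 of the 10 genes.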

How the results depend on the processing

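The count of called transporters was 5 to 8 of 10 for fasting in NT+/+ mice and 7 to 8 in NT-/- mice over 9 alternatives and 19 fits that each left out 1 mouse, and 0 in both genotype comparisons and the interaction in each of them. Slc6a19, Slc15a1, Slc6a20a, Slc3a1, and Slc7a8 passed the test in both genotypes in all of these. With only the compared groups in the fit, 5 were called in NT+/+ mice, where 3361 of all 16668 tested genes were called. Over all these fits, 3022 to 5484 of all genes were called for fasting in NT+/+ mice and 3442 to 5672 in NT-/- mice.

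The number of all genes called between genotypes was 1 in each diet. It was 0 in each diet with at least 10 counts required in every mouse, 0 in each with the mouse of disagreeing labels counted as NT-/-, and 3 on chow and 101 after fasting by DESeq2. Leaving out 1 mouse gave 1 to 4 in fasted mice, 4 without replicate 1 of the fasted NT-/- group, and the cause was not tested. With a replicate block by title number, 7 transporters were called in NT+/+ and 8 in NT-/- mice, and 5006 and 5657 of all genes, against 3862 and 4499 without the block. The block by file name number also gave 7 and 8 transporters, and 5484 and 5672 of all genes. The block changed no other call of a transporter than that of Slc7a9 in NT-/- mice.

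Sign changes were limited to small values that passed no test. For fasting in NT-/- mice, Slc7a5 was at -0.0646 with the file name block and at -0.0269 (without fasted replicate 3) to 0.282 with a mouse left out. For fasting in NT+/+ mice, Slc1a1 was at -0.27 to 0.0083 with a mouse left out. For genotype on chow, values with a mouse left out ran from -0.0032 to 0.1722 for Slc3a1, from -0.0249 to 0.1183 for Slc7a9, and from -0.0706 to 0.3609 for Slc1a1. With the mouse of disagreeing labels counted as NT-/-, Slc7a9 was at -0.031 between genotypes after fasting. The same change put the interaction at -0.049 for Slc6a19, -0.0798 for Slc7a9, -0.029 for Slc7a7, -0.0762 for Slc7a8, -0.049 for Slc3a2, and -0.0098 for Slc15a1. With a mouse left out, the interaction ran from -0.0027 to 0.1642 for Slc7a9 and from -0.4816 to 0.108 (without fasted NT+/+ replicate 3) for Slc7a5. For the ratios, leaving out a mouse gave -0.0588 to 0.0363 for Slc3a2 over Slc7a7 in NT-/- mice and -0.1458 to 0.1932 for Slc3a2 over Slc7a5 in NT+/+ mice. With the replicate block, added after seeing the data, Slc3a2 over Slc7a8 in NT+/+ mice was at -0.2465 by either number and Slc3a2 over Slc7a5 in NT-/- mice at 0.5443 (title) and 0.7053 (file name), where so few pairs cannot reach a p of 0.05. The other fold changes, 1351 of 1390, kept direction and side of the threshold, with 14 more passing and 10 fewer.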
